A study of Mus musculus with 9 samples.

Results

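Transcripts of the FGF and EGF receptor signalling pathway were examined in neurospheres, free-floating colonies of dividing cells, grown from mouse embryos. The module was a list of 55 genes, taken whole and defined by role with no threshold on their values: FGF and EGF family ligands, their receptors, the Ras-ERK cascade below them, and the inhibitors and transcription factors that the cascade switches on. A gene was measured by every probe set whose platform symbol was its own. Probe sets were found for 50 of the 55 genes, 130 probe sets in all, out of 18193 genes with a probe set on the array. Of the 50 genes, 37 were detected well enough to be tested, among 10319 tested genes. Areg, Frs2, Hras and Mapk3 have no probe set listed in the annotation used, and those of Etv1 carry several symbols, so these 5 genes were not analysed here.

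All spheres came from C57BL/6J embryos of embryonic day 12.5 and were at passage 3. Each of 3 groups had 3 Affymetrix arrays. The rNCSC group was grown from dorsal root ganglia (DRG), sensory ganglia that form from the neural crest, in serum-free DMEM/F12 with N2 and B27 supplements, 20 ng/ml bFGF, 20 ng/ml EGF and 0.5 U/ml heparin. SCSC spheres were grown from spinal cord in that same medium. BMP NCSC spheres had DRG as their source too, and their medium also held 10 ng/ml BMP4. Both growth factors that feed the pathway were therefore supplied to every group at the same added dose. The labels describe rNCSC as crest-derived cells reprogrammed to a CNS state. Whether the replicates are separate cultures or litters is not stated in them. The p-values then measure only the spread between these arrays, which may be technical.

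Fibroblast growth factors bind receptor tyrosine kinases together with heparan sulphate, and epidermal growth factor and its relatives bind the EGF receptor and other ErbB receptors. Both kinds of receptor pass their signal through adaptors to Ras, Raf, MEK and ERK, and active ERK induces its own inhibitors, among them Sprouty proteins and ERK phosphatases, as well as ETS transcription factors. FGF and EGF together are the standard mitogens that keep neural stem cells dividing as neurospheres.

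Values are log2 expression levels, so a difference of 1 is a doubling. A difference is the first-named group minus the second, a gene was tested where it reached 5 on at least 3 arrays, and it was called at an adjusted p below 0.05 with an absolute difference of at least 1 (limma with Benjamini-Hochberg adjustment over the 10319 genes). Levels under 4 lie near the floor of the method, where the size of a difference is uncertain. The array medians lay between 3.99 and 4.03, and 38.7% to 39.9% of probe sets reached 5. The third arrays of rNCSC and BMP NCSC stood farthest from their groups, with 8.97% and 6.14% of tested genes over 0.5 from the group mean. The second rNCSC array, at 6.03%, was close to the latter. The other arrays of these groups were at 3.50% to 4.32%, and the SCSC arrays at 0.79% to 1.15%. Of 6 CNS progenitor markers measured, 5 were over 5 in rNCSC and in SCSC, all but Nkx6-1, and only Sox2 was in BMP NCSC. The 6 neural crest markers were all under 5 in rNCSC and SCSC, and in BMP NCSC all but Foxd3 were over it. Of 5 sensory neuron markers measured, Isl1, Pou4f1, Prph and Runx3 were under 5 in every group, and Ntrk2, a neurotrophin receptor, was called higher in rNCSC and SCSC than in BMP NCSC, by 3.45 and 3.14. The 5 endothelial and 6 microglial and blood markers measured were under 4 in every group.

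Between rNCSC and BMP NCSC, 20 of the 37 tested members were called, 10 higher and 10 lower in rNCSC. That is 27.0% in each direction, where 21.3% of all tested genes were called higher and 22.6% lower. Between SCSC and BMP NCSC, 9 members were higher and 9 lower in SCSC, 24.3% each way against 24.0% and 22.9% of all genes. Counting an adjusted p below 0.05 at any size gave 28 and 27 of the 37 members, in a background of 77.9% and 79.7%. Of the 37 members, 31 reached 5 in all 3 groups. Fgf7 and Fgf12 reached it in BMP NCSC alone and Fgf11, Fgf14, Egfr and Spred3 in rNCSC and SCSC alone, so these 6 could hardly be called in more than 1 direction. The share of members called was close to that of the whole transcriptome, and the account below concerns which members stood on which side. The median difference of the tested members was 0.03 for rNCSC against BMP NCSC and -0.15 for SCSC against BMP NCSC, beside 0.07 and 0.10 over all tested genes. Both comparisons use the same 3 BMP NCSC arrays. Without the third arrays of rNCSC and BMP NCSC, an alternative chosen after seeing the data, the counts were 10 higher and 10 lower in rNCSC and 8 higher and 11 lower in SCSC.

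By role, the FGF receptors and EGF family ligands that were tested were lower in rNCSC and SCSC than in BMP NCSC. Egfr itself, Fgf14, the inhibitor Lrig1, Nras, Spry2, Spred3, Dusp4, Dusp6 and Etv4 were called higher there. The other tested Sprouty, Spred and Dusp genes were not called. Other genes moved with the same comparison. The mean level of 6 mesenchyme and cartilage markers was 2.89 to 3.17 on the rNCSC arrays, 2.93 to 3.19 on the SCSC arrays and 11.52 to 12.00 on the BMP NCSC arrays. Of these markers, Col1a1 was under 5 in every group, BMP NCSC included. The mean of 5 cell cycle genes was 11.36 to 11.59, 11.49 to 11.67 and 5.26 to 6.07. Neural crest markers averaged 3.35 to 3.65, 3.27 to 3.40 and 9.03 to 9.35, and CNS progenitor markers 10.61 to 10.73, 10.68 to 10.78 and 4.09 to 4.12. Their part in the results was not tested. In whole spheres, fewer cells of a type and less RNA per cell cannot be told apart.

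**Figure D1:**
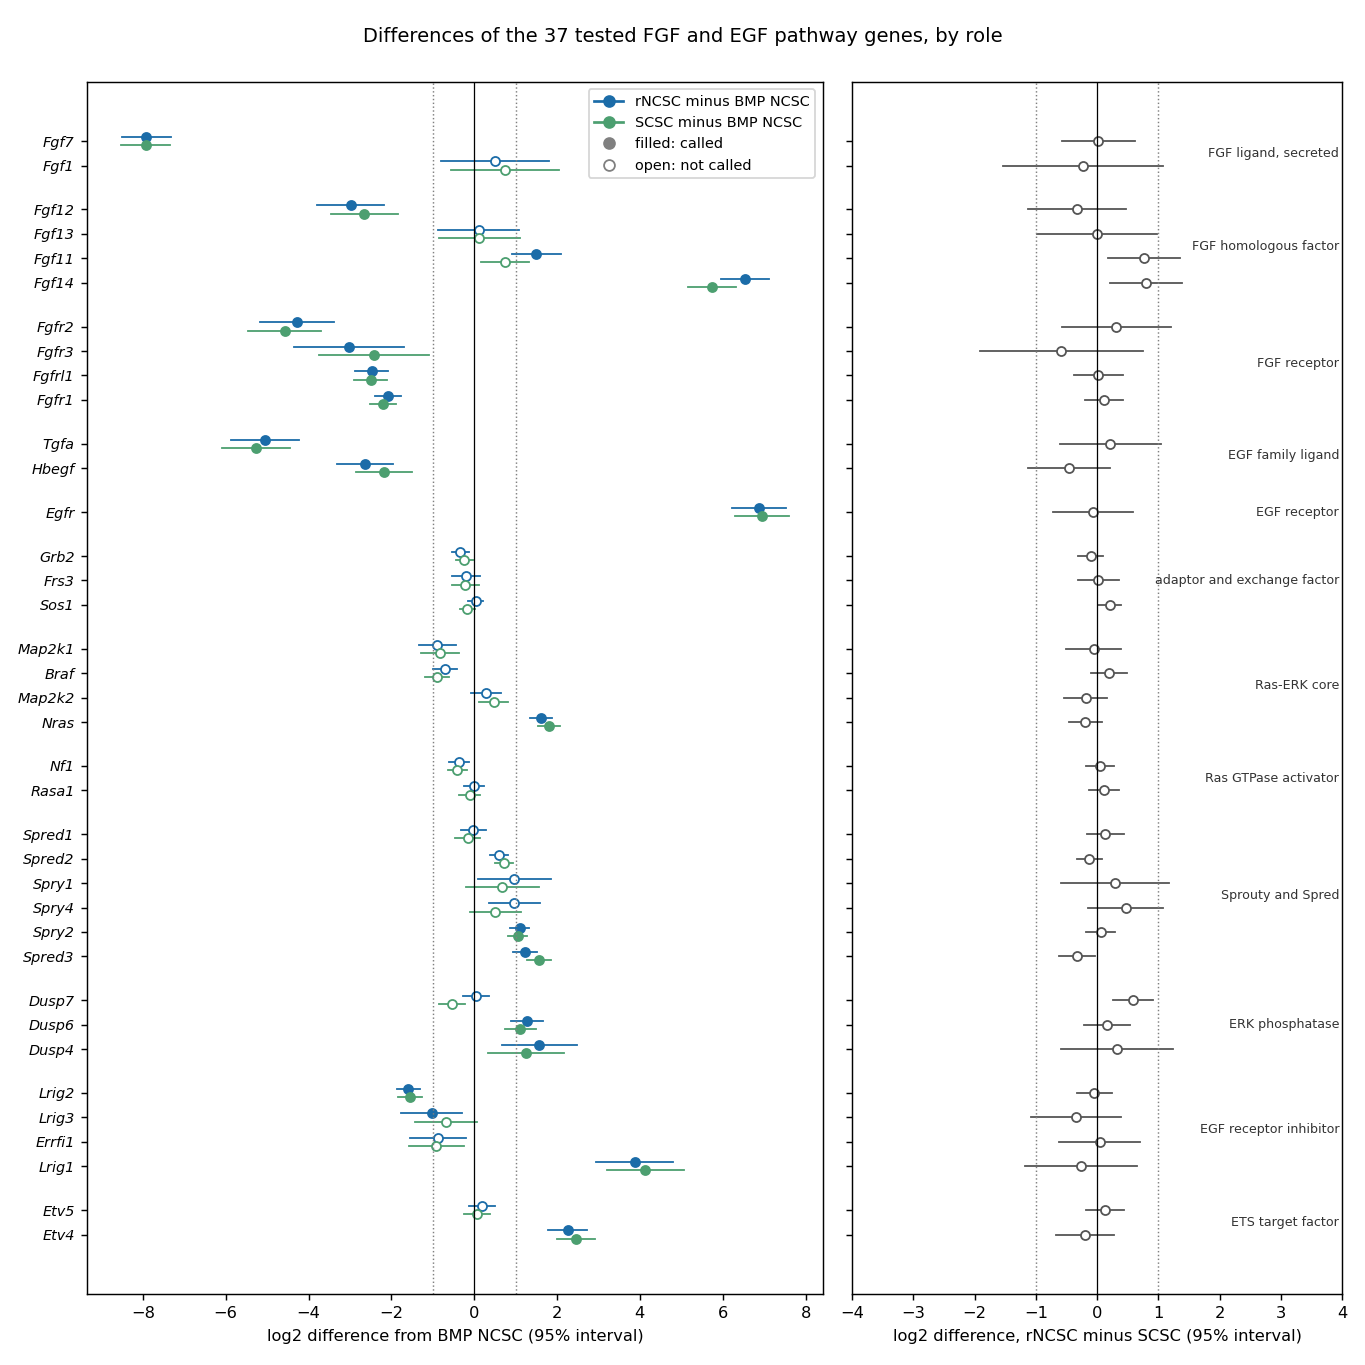
Log2 difference with its 95% interval for the 37 tested members, ordered by role. Left, rNCSC (blue) and SCSC (green) minus BMP NCSC, with filled points for called members and dotted lines at 1 and -1. Right, rNCSC minus SCSC on its own axis, with no filled point. FGF receptors lie left of zero in the left panel, and Egfr and Fgf14 lie farthest to the right.

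The promoters of Egfr, Lrig1, Fgfr2 and Fgfr3 are shown because these receptors and this receptor inhibitor took opposite sides in the comparison with BMP NCSC. Egfr and Lrig1 were higher in rNCSC and SCSC, and Fgfr2 and Fgfr3 were the FGF receptors with the greatest difference in the other direction in rNCSC. Each sequence is the 250 bases before an annotated start site in the RefSeq table for GRCm38.p6, written 5′ to 3′ on the gene's strand. Capitals mark matches to 3 motifs searched on both strands: CCGGAA, the core of sites bound by ETS factors, TGANTCA, the AP-1 site, and GGCGCC, a GC-rich site bound by SMAD proteins. Fgfr3 has a window for each of its annotated starts.
Egfr promoter, chr11:16751953-16752202, plus strand: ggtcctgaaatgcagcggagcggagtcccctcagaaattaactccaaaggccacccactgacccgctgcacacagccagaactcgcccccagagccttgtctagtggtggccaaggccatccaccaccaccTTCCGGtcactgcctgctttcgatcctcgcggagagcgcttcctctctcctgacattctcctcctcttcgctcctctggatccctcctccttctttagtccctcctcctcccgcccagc
Lrig1 promoter, chr6:94700146-94700395, minus strand: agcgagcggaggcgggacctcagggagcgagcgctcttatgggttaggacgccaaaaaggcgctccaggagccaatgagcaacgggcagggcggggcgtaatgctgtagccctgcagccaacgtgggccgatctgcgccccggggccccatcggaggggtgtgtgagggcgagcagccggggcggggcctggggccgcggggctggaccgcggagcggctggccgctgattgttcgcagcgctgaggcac
Fgfr2 promoter, chr7:130266809-130267058, minus strand: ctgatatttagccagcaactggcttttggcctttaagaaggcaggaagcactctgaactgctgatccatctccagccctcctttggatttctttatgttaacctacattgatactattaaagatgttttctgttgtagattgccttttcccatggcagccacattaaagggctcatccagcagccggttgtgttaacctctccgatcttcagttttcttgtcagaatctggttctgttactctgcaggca
Fgfr3 promoter, chr5:33721474-33721723, plus strand: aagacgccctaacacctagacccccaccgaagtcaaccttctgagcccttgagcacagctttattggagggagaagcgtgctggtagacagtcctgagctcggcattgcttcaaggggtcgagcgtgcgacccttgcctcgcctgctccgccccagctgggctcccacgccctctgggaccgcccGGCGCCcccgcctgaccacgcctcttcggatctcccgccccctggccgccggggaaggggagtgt
Fgfr3 promoter, chr5:33722056-33722305, plus strand: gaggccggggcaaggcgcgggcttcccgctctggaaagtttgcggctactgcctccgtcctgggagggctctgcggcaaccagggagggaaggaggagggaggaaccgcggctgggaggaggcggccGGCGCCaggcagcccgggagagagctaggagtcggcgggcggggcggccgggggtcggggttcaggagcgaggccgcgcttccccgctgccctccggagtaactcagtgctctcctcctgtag
The Egfr window held 1 ETS core, beginning 119 bases before the start, and no other motif. Lrig1 and Fgfr2 held none of the 3 motifs. The Fgfr3 windows each held 1 GGCGCC, beginning 65 bases before the start in the first and 123 in the second. Base composition differed widely among them. The Fgfr2 window had 44.0% G and C with 2 CpG pairs and the Egfr window 60.8% with 11. The Fgfr3 windows had 66.8% with 19 and 72.8% with 24, and the Lrig1 window 71.6% with 26. The median over all 32851 windows in the table was 52.4% with 6 CpG pairs. Windows were found for 44 of the 55 members, 56 in all, and Fgfr1, Etv4 and Dusp4 were not among them. The ETS core was in 21.4% of member windows and 12.0% of all windows, TGANTCA in 3.57% and 6.75%, and GGCGCC in 23.2% and 9.59%. These shares were not compared at matched base composition. A match describes letters and not a site in use.

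FGF receptors were called lower in rNCSC and SCSC than in BMP NCSC at each of the 4 genes tested. Of all tested genes, 22.6% were called lower in rNCSC and 22.9% in SCSC. Fgfr1, a widely expressed kinase receptor (probe set 1424050_s_at), measured 10.07, 9.63 and 10.06 on the rNCSC arrays, 9.83, 9.71 and 9.88 on the SCSC arrays, and 12.17, 11.96 and 11.91 on the BMP NCSC arrays. The groups on either side of the comparison did not overlap. Its difference was -2.09 (SE 0.14, 95% interval -2.41 to -1.78, n = 3 a group) for rNCSC and -2.20 for SCSC, with limma adjusted p of 1.5e-06 and 1.0e-06. Fgfr2 (1433489_s_at), whose splice forms read different FGF ligands, measured 5.24, 5.44 and 6.83 in rNCSC, 5.60, 5.86 and 5.13 in SCSC, and 10.01, 9.99 and 10.33 in BMP NCSC. The highest of these low arrays was the third rNCSC array, still well under every BMP NCSC array. The difference was -4.27 (SE 0.39, 19.3-fold lower) in rNCSC and -4.58 (23.9-fold lower) in SCSC, with limma adjusted p of 1.2e-05 and 7.1e-06.

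Fgfr3 (1421841_at), a receptor expressed by ventricular zone progenitors of the developing CNS and by cartilage, measured 10.20, 10.70 and 8.10 in rNCSC, 9.85, 10.69 and 10.22 in SCSC, and 12.56, 12.79 and 12.69 in BMP NCSC. The third rNCSC array lay over 1 below the others of its group, which gave an SD of 1.4 against 0.42 in SCSC and 0.11 in BMP NCSC. The difference was -3.01 (SE 0.58, 8.08-fold lower) in rNCSC and -2.43 (5.38-fold lower) in SCSC, with limma adjusted p of 0.0013 and 0.0043. Without the third rNCSC array the rNCSC difference was -2.23. Fgfrl1 (1451912_a_at) encodes a receptor-like protein that binds FGFs but has no kinase domain. It measured 9.22, 9.13 and 9.84 in rNCSC, 9.38, 9.42 and 9.32 in SCSC, and 11.97, 11.78 and 11.88 in BMP NCSC. The differences were -2.48 (SE 0.18, limma adjusted p 2.4e-06) and -2.50 (2.1e-06), with no overlap of arrays. Fgfr4, the remaining kinase receptor, did not reach the level for testing. Its values were 3.25, 3.40 and 3.32 in rNCSC, 3.22, 3.28 and 3.24 in SCSC, and at most 3.49 in BMP NCSC, all near the floor.

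**Figure D2:**
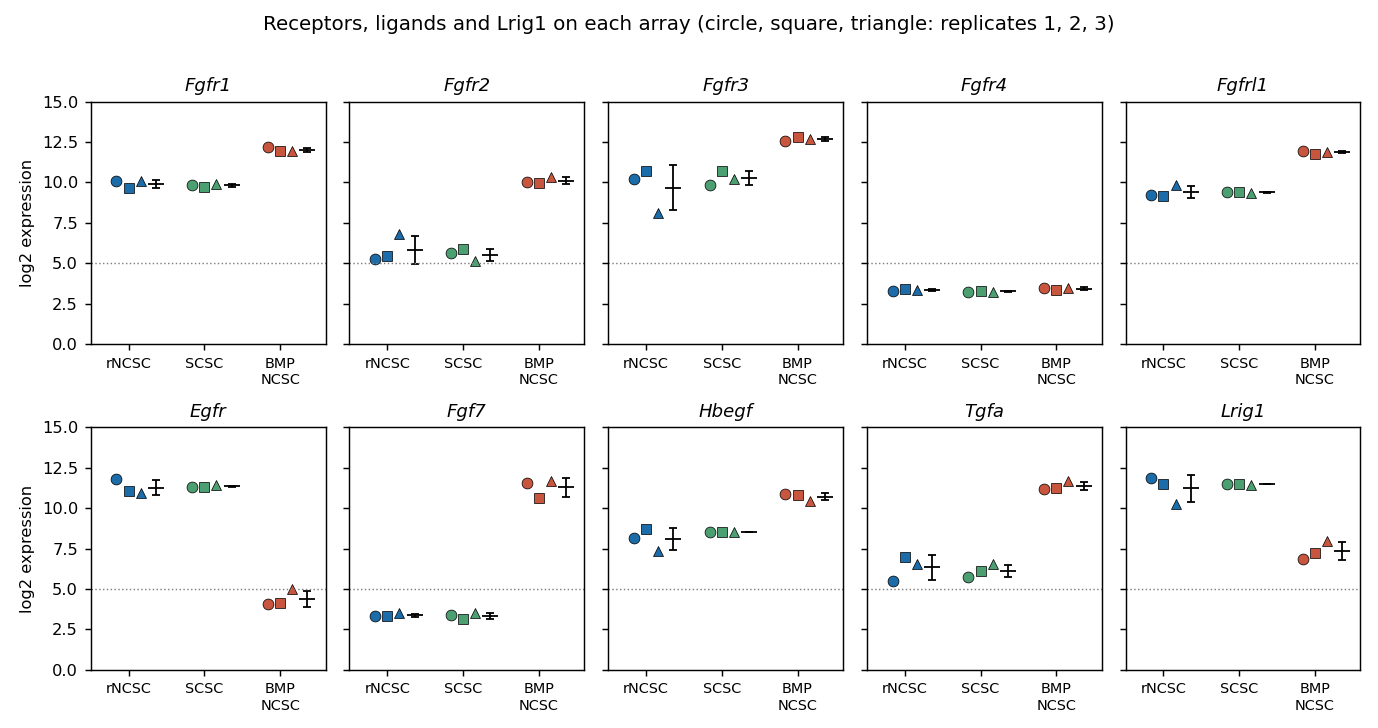
Log2 expression of the FGF receptors, Egfr, 3 ligands and Lrig1 on each array, with circles, squares and triangles for replicates 1, 2 and 3, and black bars for the mean and SD of 3 arrays. The dotted line marks 5, the level for testing. Fgfr1, Fgfr2, Fgfr3, Fgfrl1, Fgf7, Hbegf and Tgfa are highest in BMP NCSC, Egfr and Lrig1 are lowest there, and Fgfr4 lies under the line on all 9 arrays.

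Egfr, the receptor for the EGF supplied in the medium, had the greatest positive difference of any tested member. It measured 11.82, 11.07 and 10.92 in rNCSC, 11.32, 11.32 and 11.40 in SCSC, and 4.07, 4.16 and 4.97 in BMP NCSC (probe set 1435888_at). All 3 BMP NCSC arrays were under 5, so the gene could pass the filter only through rNCSC and SCSC. The difference was 6.87 (SE 0.29, 95% interval 6.22 to 7.53, limma adjusted p 9.7e-08) in rNCSC and 6.95 (8.4e-08) in SCSC, which is 117-fold and 123-fold on this scale. The size depended on the probe set. The other Egfr probe sets that were tested were called higher too, with differences of 5.31 and 1.30 in rNCSC and 5.34 and 1.28 in SCSC, and 4 further ones were under the level for testing in every group. Averaging all Egfr probe sets gave 2.03 in both comparisons. Of the related receptors, which are not on the member list, Erbb3 differed in the other direction by -8.73 and -8.64 and Erbb2 by -1.71 and -1.52. Erbb3 was at 3.09 in rNCSC and 3.17 in SCSC, near the floor, and Erbb4 was under the level for testing, at most 2.69.

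The detected EGF family ligands, Tgfa and Hbegf, were lower in rNCSC and SCSC than in BMP NCSC. Tgfa (1421943_at), a ligand of the EGF receptor, measured 5.50, 6.97 and 6.52 in rNCSC, 5.75, 6.08 and 6.52 in SCSC, and 11.20, 11.26 and 11.68 in BMP NCSC. Its difference was -5.05 (SE 0.36, 33.2-fold lower) and -5.26 (38.4-fold lower), with limma adjusted p of 2.6e-06 and 1.8e-06. This rested on 1 probe set. The other Tgfa probe sets had means between 3.71 and 4.12 in the 3 groups and were not tested, and averaging the probe sets gave -1.67 and -1.76. Hbegf (1418350_at), a heparin-binding ligand of the same receptor, measured 8.15, 8.71 and 7.35 in rNCSC, 8.54, 8.54 and 8.51 in SCSC, and 10.85, 10.83 and 10.46 in BMP NCSC. The differences were -2.64 (SE 0.29, limma adjusted p 4.2e-05) and -2.18 (0.00013), and the groups did not overlap. A second Hbegf probe set gave -2.67 and -2.33. Egf, Btc and Ereg, 3 further ligands, stayed under the level for testing, with highest values of 4.08, 3.35 and 4.11.

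Among the 8 secreted FGF ligands on the list, Fgf7 and Fgf1 were detected. Fgf7 (1438405_at), or keratinocyte growth factor, which binds an epithelial splice form of Fgfr2, measured 3.31, 3.30 and 3.49 in rNCSC, 3.40, 3.15 and 3.49 in SCSC, and 11.56, 10.60 and 11.69 in BMP NCSC. It was at the floor in rNCSC and SCSC and passed the filter only through BMP NCSC. The difference was -7.92 (SE 0.26, limma adjusted p 2.4e-08) and -7.94 (2.2e-08), and -7.28 in both when values under 4 were set to 4. A second Fgf7 probe set gave -3.63 and -3.71. Fgf1, or acidic FGF, averaged 8.86 ± 0.60 in rNCSC, 9.09 ± 0.073 in SCSC and 8.35 ± 1.3 in BMP NCSC (SD, n = 3 each). Of its BMP NCSC arrays, the third was at 6.87 and the others at 9.12 and 9.06, and the groups overlapped. Fgf1 was not called, at 0.51 and 0.74 (limma adjusted p 0.43 and 0.26), and the differences were -0.23 and -0.005 without that array. Another Fgf1 probe set was called higher in rNCSC and SCSC, at 1.37 and 1.71. Fgf2, which encodes the bFGF supplied in the medium, was at most 3.56, and Fgf5, Fgf9, Fgf10, Fgf15 and Fgf18 were at most 3.75, 3.83, 3.12, 3.01 and 3.61. A further 10 FGF ligands outside the member list were under the level for testing too.

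Fgf11 to Fgf14 encode the FGF homologous factors, which stay inside the cell and are best known as partners of voltage-gated sodium channels. They did not move together. Fgf14 (1458830_at) measured 9.18, 8.82 and 9.09 in rNCSC, 7.83, 8.14 and 8.72 in SCSC, and 2.13, 2.43 and 2.90 in BMP NCSC. It was near the floor in BMP NCSC, and its difference of 6.54 (SE 0.26, limma adjusted p 6.8e-08) in rNCSC and 5.74 (1.3e-07) in SCSC became 5.03 and 4.23 with values under 4 set to 4. Averaging its probe sets gave 3.46 and 3.06. Fgf12 (1440270_at) lay on the other side. It measured 4.10, 4.90 and 4.16 in rNCSC, 4.73, 4.76 and 4.66 in SCSC, and 6.55, 7.99 and 7.57 in BMP NCSC, and it passed the filter only through BMP NCSC. The differences were -2.98 (SE 0.35, limma adjusted p 6.1e-05) and -2.65 (0.00012). Fgf11 was called higher in rNCSC, at 1.50 (limma adjusted p 0.00063), and not in SCSC, at 0.74 (0.025), or 0.40 without the second SCSC array. It was under 5 in BMP NCSC. Fgf13 was detected in all groups, with means of 9.18, 9.19 and 9.06, and was not called. Its difference for rNCSC had a 95% interval of -0.87 to 1.09.

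Between the receptors and ERK, Nras was the only member called among the 9 tested adaptors, cascade members and Ras inactivators, where 21.3% of all genes were called higher and 22.6% lower in rNCSC, and 24.0% and 22.9% in SCSC. Nras, a Ras GTPase, averaged 11.05 ± 0.22 in rNCSC, 11.24 ± 0.053 in SCSC and 9.44 ± 0.093 in BMP NCSC (SD, n = 3 each). It was 3.06-fold and 3.50-fold higher in rNCSC and SCSC than in BMP NCSC, a difference of 1.61 (SE 0.12, limma adjusted p 3.1e-06) and 1.81 (1.4e-06). Braf, a Raf kinase, and Map2k1, a MEK kinase, had differences of -0.71 and -0.89 in rNCSC and -0.91 and -0.83 in SCSC. Their adjusted p ran from 0.00018 to 0.0041, and they missed the size limit. Map2k1 passed it without the third BMP NCSC array, at -1.07 and -1.02, and so did Braf in SCSC, at -1.001. Map2k2 was at 0.28 and 0.47. The adaptors Grb2 and Frs3 and the exchange factor Sos1 had differences between -0.34 and 0.03. Nf1 and Rasa1, which return Ras to its inactive state, had -0.36 and 0.00 in rNCSC and -0.41 and -0.11 in SCSC.

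Sprouty and Spred proteins are inhibitors that restrain the path from receptor to ERK. Of the 6 tested, Spry2 and Spred3 were called higher in rNCSC and in SCSC than in BMP NCSC, where 21.3% and 24.0% of all genes were, and none was called lower. Spry2 averaged 11.93 ± 0.11, 11.87 ± 0.12 and 10.83 ± 0.098 in rNCSC, SCSC and BMP NCSC (SD, n = 3 each). It was 2.15-fold and 2.07-fold higher, at 1.10 (SE 0.10, limma adjusted p 1.3e-05) and 1.05 (1.6e-05). The SCSC call sat at the size limit, and the value was 0.99 without the second BMP NCSC array or the third SCSC array. Spred3 averaged 5.50, 5.83 and 4.27, a difference of 1.23 and 1.56 (limma adjusted p 2.5e-05 and 5.2e-06). It was under 5 in BMP NCSC, so it passed the filter only through the other groups. Spry1 and Spry4 each had a difference of 0.97 in rNCSC, just under the limit, and 0.68 and 0.51 in SCSC. Spry1 varied with the arrays used. It passed the limit in rNCSC without the first rNCSC array (1.19), the first BMP NCSC array (1.15) or the second (1.21), and it was at 0.54 in rNCSC and 0.25 in SCSC without the third BMP NCSC array. Spry4 passed it without the second rNCSC array (1.18) or the third BMP NCSC array (1.07). In SCSC it was at 0.76 without the second SCSC array and 0.29 without the third. Another Spry4 probe set was called at 1.28 and 1.09. Spred2 was at 0.60 and 0.72 (limma adjusted p 0.00033 and 9.0e-05), below the size limit though its arrays did not overlap those of BMP NCSC. Some other probe set of Spred2 was called in rNCSC and none in SCSC. Spred1 was at -0.02 and -0.15, while other probe sets of it reached -1.08 in rNCSC and -1.14 and -1.19 in SCSC. Spry3 was under the level for testing, with a highest value of 5.28 on 1 rNCSC array.

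**Figure D3:**
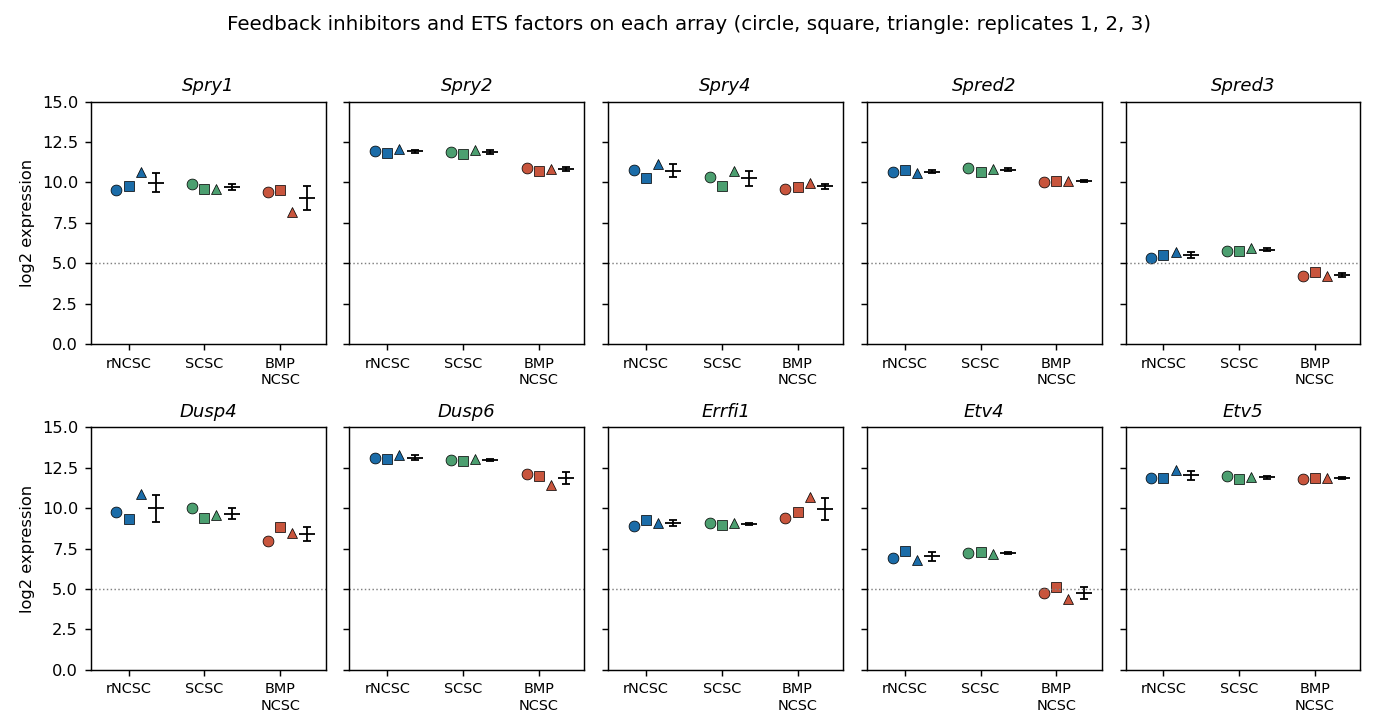
Log2 expression of 10 inhibitors and target genes of the ERK cascade on each array, with circles, squares and triangles for replicates 1, 2 and 3, and black bars for the mean and SD of 3 arrays. The dotted line marks 5. Spry2, Spred3, Dusp4, Dusp6 and Etv4 are lowest in BMP NCSC, Errfi1 is highest there, and Etv5 lies near 12 in all 3 groups. The means of Spry1, Spry4 and Spred2, which were not called, are lowest in BMP NCSC too.

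The dual-specificity phosphatases Dusp6, which acts on ERK in the cytoplasm, and Dusp4, which acts in the nucleus, were also higher in rNCSC and SCSC. Dusp6 averaged 13.13 ± 0.13 in rNCSC, 12.97 ± 0.058 in SCSC and 11.86 ± 0.35 in BMP NCSC (SD, n = 3 each). Its lowest BMP NCSC array was the third, at 11.46. The differences were 1.27 (SE 0.17, limma adjusted p 0.00011) and 1.11 (0.00025), and the SCSC difference was 0.91, under the size limit, without that array. Dusp4 averaged 9.99 ± 0.82, 9.66 ± 0.34 and 8.41 ± 0.43, and the arrays on either side did not overlap. The differences were 1.57 (SE 0.40, limma adjusted p 0.0060) and 1.25 (0.018). The SCSC call was lost without the first BMP NCSC array (1.02, adjusted p 0.065) or the first SCSC array (1.06, adjusted p 0.064). Dusp7 was not called, at 0.04 and -0.54. Dusp5 and Dusp9 were at most 4.33 and 3.94 and were not tested.

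The 3 Lrig genes and Errfi1 were grouped by role as inhibitors of the EGF receptor, and they did not share a direction. The data do not show whether Lrig2 and Lrig3 inhibit this receptor. Lrig1 (1449893_a_at), a transmembrane protein that promotes the loss of EGF receptor from the cell surface and marks quiescent stem cells in several tissues, measured 11.85, 11.52 and 10.28 in rNCSC, 11.49, 11.49 and 11.46 in SCSC, and 6.85, 7.24 and 7.95 in BMP NCSC. Lrig1 was thus high in the groups where Egfr was high, with its lowest rNCSC array and its highest BMP NCSC array both the third of their group. The differences were 3.87 (SE 0.40, 14.6-fold, limma adjusted p 2.7e-05) and 4.13 (17.6-fold, 1.7e-05), and a second probe set gave 4.29 and 4.61. Its relative Lrig2 lay on the other side, with means of 6.44 ± 0.029, 6.49 ± 0.20 and 8.04 ± 0.17 (SD, n = 3 each). The Lrig2 differences were -1.59 and -1.54 (limma adjusted p 4.5e-06 and 5.0e-06). In SCSC against BMP NCSC, not every tested Lrig2 probe set was called. Lrig3 was called lower in rNCSC, at -1.03 (limma adjusted p 0.017), and not in SCSC, at -0.68 (0.082). That call was lost without the third rNCSC array (-0.65) or the first BMP NCSC array (-0.83, adjusted p 0.063). Errfi1, an intracellular inhibitor of the EGF receptor kinase, was at -0.87 and -0.91 (limma adjusted p 0.022 and 0.018) and was not called. Its BMP NCSC arrays spread from 9.37 to 10.72, and without the first of them the differences were -1.17 and -1.20, past the limit. Without the third they were -0.49 and -0.53.

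Etv4 and Etv5 are ETS transcription factors of the PEA3 group and classical targets of FGF signalling, and they differed from each other here. Etv4 measured 6.93, 7.34 and 6.76 in rNCSC, 7.20, 7.28 and 7.14 in SCSC, and 4.73, 5.14 and 4.39 in BMP NCSC. The arrays did not overlap, and the differences were 2.25 (SE 0.20, 4.77-fold, limma adjusted p 1.1e-05) and 2.45 (5.48-fold, 6.1e-06). Etv5 averaged 12.04 ± 0.27, 11.91 ± 0.096 and 11.85 ± 0.051 (SD, n = 3 each), with overlapping arrays. Its differences were 0.19 (95% interval -0.12 to 0.50, limma adjusted p 0.22) and 0.06 (0.68), and its other tested probe sets were not called either.

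Genes of the wider pathway outside the member list fell on both sides as well. Of 19 tested adaptors and Ras-ERK components, 4 were called higher (21.1%) and 3 lower (15.8%) in rNCSC against BMP NCSC, where 21.3% and 22.6% of all genes were. The counts were the same in SCSC, where the background was 24.0% and 22.9%, so the higher share was near the background in both. Those with the smallest p in rNCSC were Rras (-3.52), Shc1 (-3.60), Gab2 (2.03) and Rasal2 (2.48), which encode a Ras family GTPase, an adaptor for activated receptors, a docking protein and a Ras inactivator. Of 23 tested ERK targets and feedback genes, 7 were higher (30.4%) and 9 lower (39.1%) in rNCSC, and 6 (26.1%) and 7 (30.4%) in SCSC. Myc (2.89) and the MAP kinase phosphatase Dusp16 (2.80) were higher, and the immediate early gene Fos (-4.62) and Socs3 (-5.10), a cytokine signalling inhibitor, were lower. Heparan sulphate proteoglycans, which hold FGF to its receptor, had 2 of 9 tested genes higher (22.2%) and 6 lower (66.7%) in both comparisons, with a median of -3.68 in rNCSC and -4.40 in SCSC. The syndecan Sdc2 (-4.13) and the glypicans Gpc6 (-4.36), Gpc4 (-3.68) and Gpc3 (-8.37) were lower in rNCSC, Gpc3 being under 4 in rNCSC and SCSC. All 5 BMP response genes measured were lower in rNCSC and SCSC than in the BMP4-treated spheres, among them Smad6 at -7.57 and Id1 at -3.20 in rNCSC.

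Between rNCSC and SCSC, spheres of different origin in the same medium, no member was called (limma). Of all tested genes, 0% were called higher in rNCSC and 0.00969% lower, which is 1 gene. The members' differences ran from -0.59 to 0.80, with a median of 0.02 beside -0.04 over all genes. An unadjusted p below 0.05 was reached by 5 of the 37 members, Dusp7, Fgf14, Fgf11, Spred3 and Sos1, in a background of 13.7%. Dusp7, an ERK phosphatase, had the smallest. It measured 6.96, 6.50 and 6.42 in rNCSC, 5.97, 6.08 and 6.08 in SCSC, and 6.66, 6.56 and 6.53 in BMP NCSC. The difference was 0.58 (95% interval 0.26 to 0.90, limma p 0.0029, adjusted p 0.20). Its interval makes no allowance for the choice of the smallest p among 37 members. Fgf14 had the greatest difference, 0.80 (limma p 0.014, adjusted p 0.25).

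A missed threshold does not show that rNCSC and SCSC are alike. For 24 of the 37 members the 95% interval of the difference lay inside -1 to 1, among them Fgfr1 at 0.11, Fgfrl1 at 0.02, Egfr at -0.07, Spry2, Dusp6 and Etv4. For the other 13 it reached beyond. These were Fgf1, Fgf11, Fgf12, Fgf14, Fgfr2, Fgfr3, Hbegf, Tgfa, Spry1, Spry4, Dusp4, Lrig1 and Lrig3. The widest interval was that of Fgfr3, -1.92 to 0.74 around -0.59, and without the third rNCSC array its difference was 0.19.

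**Figure D4:**
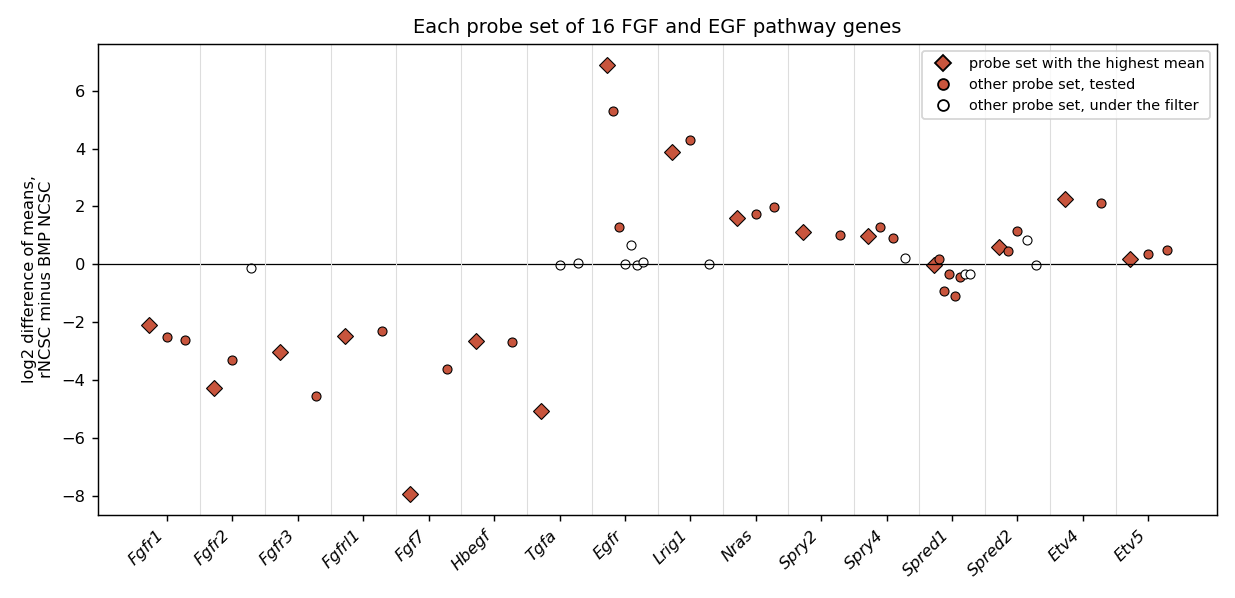
Log2 difference between rNCSC and BMP NCSC for each of the 54 probe sets of 16 members, with diamonds for the probe set of highest mean that represents the gene, filled points for tested probe sets, and open points for those under the level for testing. Tested probe sets of Fgfr1, Fgfr2, Fgfr3 and Egfr lie on 1 side for each gene, and those of Spred1 range from -1.08 to 0.19.

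Several probe sets measured many of the members, which gave a second reading of the same RNA and not a further replicate. With all 17651 testable probe sets in 1 fit, 22 of 77 member probe sets were higher and 19 lower in rNCSC against BMP NCSC, where 21.5% and 21.1% of all probe sets were. In SCSC they were 20 and 18, where 23.9% and 21.7% of all were. Of 25 members with more than 1 tested probe set, 13 had every one called in 1 direction in rNCSC against BMP NCSC. A further 5 had some called (Fgf1, Lrig3, Spred1, Spred2 and Spry4), 7 had none, and 0 had calls in both directions. In SCSC against BMP NCSC, 12 had every one called and 4 had some (Fgf1, Lrig2, Spred1 and Spry4). There, 9 had none and 0 had both directions. Such agreement was not counted over all genes, so its usual extent on this array is not known here. The kinase receptors were read the same way by their second probe sets. Fgfr1 gave -2.52 and -2.61 in rNCSC, Fgfr2 -3.31 and Fgfr3 -4.56, beside -2.09, -4.27 and -3.01 from the probe sets reported above. The second Fgfr2 and Fgfr3 probe sets were under 4 in rNCSC and SCSC. The remaining Fgfr2 probe set was near the floor in all groups, and averaging the 3 gave -2.57 in rNCSC and -2.70 in SCSC.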

How the data were processed

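The labels' protocols describe total RNA made into biotinylated cRNA for 9 Affymetrix mouse arrays. The deposited table gives a log2 value for each of 45101 probe sets. Per the submitters' processing notes it was made with GCRMA, of a version not given in the sources used here. That method makes the arrays' distributions alike and draws unexpressed transcripts to low values. The 64 control probe sets, 932 with several symbols and 9160 unlisted in the platform annotation were left out of gene tests.

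Where a gene had several probe sets, that of highest mean on the 9 arrays stood for it. Tests used limma 3.58.1 in R 4.3.3, 1 group-means model over 9 arrays (degrees of freedom: 6 residual, 2.38 prior), two-sided, with Benjamini-Hochberg adjustment over 10319 genes, and were tested on simulated data. The number of arrays limits the precision. Members, lists and the rule for named genes were chosen with earlier results of these data known. The rule gives array values for every receptor, for members called against BMP NCSC with a difference of at least 2 and 7 or more as the mean of the higher group, and for the smallest p between rNCSC and SCSC. Of each wider list it names up to 4 genes with the smallest p. Alternatives varied the filter, floor, probe set rule, normalization, array weights, thresholds, replicate block and arrays used.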

Additional observations from a re-analysis of the deposited data

How the results depend on the processing

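In rNCSC against BMP NCSC, 17 of 20 called members were tested and called under all alternatives tried. Lrig3 lost its call under some, Spred3 was not tested with a filter of at least 6, and Fgf11 was not tested with its probe sets averaged. In SCSC against BMP NCSC it was 14 of 18, with Dusp4, Dusp6 and Spry2 lost under some and Spred3 again not tested. Lrig3 was also lost with quantile normalization repeated (-0.98), with a gene's probe sets averaged (-0.49) and at an adjusted p below 0.01, where Dusp4 was lost too. Array weights took Dusp6 to 0.96. No count of called members moved by over 1.5 times, and no called member changed sign. Leaving out each array in turn gave 19 to 22 called members in rNCSC against BMP NCSC, 17 to 19 in SCSC against BMP NCSC and 0 in rNCSC against SCSC. The median difference in SCSC against BMP NCSC, -0.15, was -0.034 with no filter on low values, over 50 members, and 0.012 with a gene's probe sets averaged, over 34. The cause was not tested. Same-numbered arrays deviated together by a correlation of 0.042 to 0.30, over 0.1 in 5 of 9 pairs. The labels do not say that a number marks a shared litter or batch, so the arrays were not treated as paired. As a hint from the data and not the design, 8 of 9 arrays correlated best with their own number. With the number as a replicate block, 20 and 18 members were called against BMP NCSC and 0 between rNCSC and SCSC. Signal near the floor limits the size of the Fgf7 and Fgf14 differences. The Egfr values in BMP NCSC, from 4.07 to 4.97, lay little above the floor, so the size of its difference is uncertain too.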
